A study of Mus musculus with 14 samples.

Results

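The brains of mice without tenascin-R (Tnr) were compared with wild-type brains at postnatal day 7 (P7), early in the first postnatal weeks. The comparison used 4 arrays labelled tnr null P7 and 4 labelled wild type P7, which are 8 of the 14 single-colour arrays of the series. They were chosen by their sample titles, and every probe set of the table other than the array's controls was considered. Of 12422 such probe sets, 8355 were bright enough to be tested. Of those, 7525 carried 1 gene symbol and stood for 6257 genes. The other 6 arrays were brains of adults aged 2 to 3 months, 3 of each genotype. They entered the comparison through the shared estimate of the spread and were otherwise used for contrast.

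Both P7 groups were labelled as male C57Bl mice at P7, untreated, although 1 wild-type array went against the label of sex, and total RNA of the entire brain was copied to biotin-labelled cRNA. The null group differed from the wild-type group in the label of the Tnr genotype alone, and its source is named as a tenascin-R knockout. The sources used here do not give how the allele was made or whether littermates were used. Nothing in the labels ties each array to its own animal. The p-values therefore cover the spread within the groups of these 8 samples and of the 6 adult samples. That spread may be technical. An entire brain mixes all cell types, so fewer cells of a type and less RNA per cell cannot be told apart in any value below.

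Tenascin-R is a large glycoprotein that the central nervous system secretes into its extracellular matrix, where oligodendrocytes and some interneurons are its main sources. It binds the lectican proteoglycans and helps to link the hyaluronan scaffold of perineuronal nets, and it meets cells through contactin 1, other adhesion molecules and sodium channels. In the first postnatal week the net around neurons has not matured, myelination is beginning, and neurons are still extending axons and forming synapses.

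The labels were checked as far as the array allowed. With 0 probe sets annotated to Tnr, the loss of Tnr itself was not measured. Signal on each array had the same 2% trimmed mean of 185.1 after scaling, and the median signal of the P7 arrays ran from 61.7 to 67.8. Correlations between P7 arrays ran from 0.895 to 0.973. All 4 neuronal markers were measured, with a summed signal of 11500 to 13480 in wild type and 11510 to 13550 in knockout. Tubb3, at 5900 to 8707, was the largest part of that sum. Single markers varied more, with Syt1 at 308 to 1221 in wild type and 239 to 1109 in knockout. The Y-linked gene Eif2s3y was at 47.0 to 108 on 7 P7 arrays and at 1.25 on wild type array 2, where Xist, the RNA of the inactive X chromosome, was at 213 against 1.79 to 4.72 on the others. The ratio of 3′ to 5′ signal of Gapdh was 0.789 on knockout array 1 and 2.25 to 3.50 on the other 7 P7 arrays. On the adult arrays it was 0.768 to 0.904, so knockout array 1 was like the adults in this measure. Wild type array 2 thus went against its label of a male animal, and the values of the single called probe set without it are given below.

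Across the 8355 probe sets the log2 difference, knockout minus wild type, had a median of 0.00 and an SD of 0.33. It was above 0 for 4227 probe sets and below 0 for 4128, and 89.8% lay within 0.5 of 0. Limma called 1 probe set at an adjusted p under 0.05, which was 0.012% of those tested. An unadjusted p under 0.05 was met by 506 probe sets, 6.06% of those tested, with 272 (3.26%) higher and 234 (2.80%) lower in knockout. In 241 probe sets (2.88%) the 4 knockout arrays and the 4 wild-type arrays did not overlap, with the knockout higher in 129 (1.54%) and lower in 112 (1.34%). A difference beyond 1 on the log2 scale, a doubling or a halving of the signal, occurred in 107 probe sets, of which 60 were higher and 47 lower in knockout. The groups did not overlap in 23 of these.

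**Figure D1:**
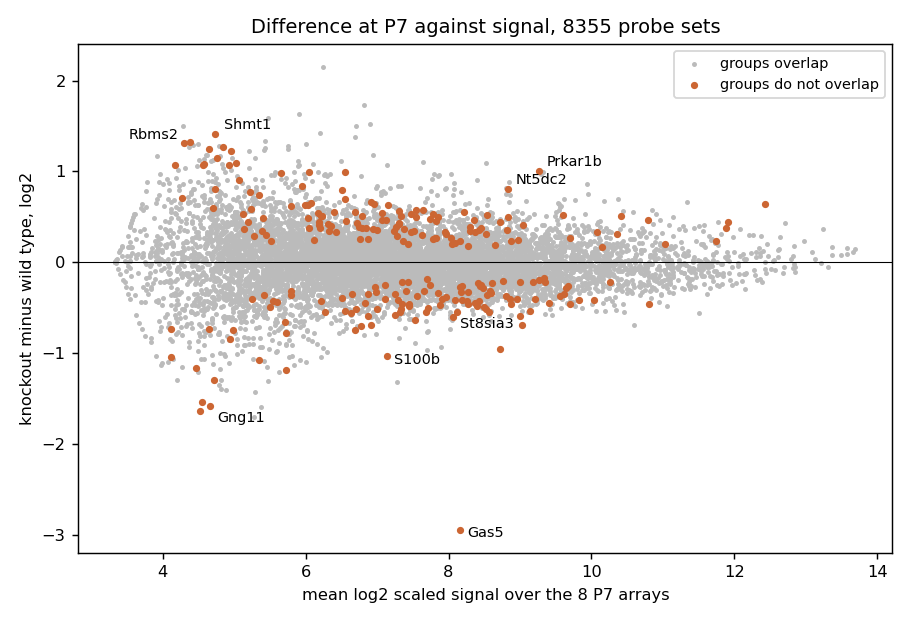
Each point is 1 of 8355 probe sets, with the mean log2 scaled signal over the 8 P7 arrays on the x axis and the log2 difference, knockout minus wild type, on the y axis. Orange points are the 241 probe sets whose groups do not overlap, and Gas5 at -2.95 lies below all others.

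The single called probe set, 98531_g_at, was that of Gas5, a long non-coding RNA whose introns carry small nucleolar RNAs and whose spliced form accumulates when cells stop growing. The wild-type arrays read 632, 786, 682 and 1198, and the knockout arrays 77.0, 131, 100 and 114. Every knockout array lay below every wild-type array, and the lowest wild-type value was well above the highest knockout value. The wild-type mean was 824 ± 257 (SD, n = 4) and the knockout mean 105 ± 22.6 (n = 4), so that Gas5 fell by 2.95 ± 0.43 (SE) on the log2 scale, 7.71-fold (limma adjusted p = 0.0481). Omitting any single P7 or wild-type adult array ended the call (limma adjusted p 0.0963 to 0.229), while the log2 difference stayed between -3.06 and -2.75. Without wild type P7 array 2, which went against its label of sex, the difference was -2.95 (limma adjusted p = 0.104). With the 8 P7 arrays fitted alone the adjusted p was 0.00136.

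In adults the same probe set read 1305, 996 and 1128 in wild type and 808, 131 and 724 in knockout, a log2 difference of -1.42 ± 0.50 that limma did not call. Knockout adult array 2, at 131, was far below the other 2 knockout adult arrays, and without it the adult difference was -0.57 ± 0.27. Leaving it out also lowered the SE of the P7 difference from 0.43 to 0.21, with a limma adjusted p of 1.31e-05 at P7. The test of whether the ages differ did not pass (1.53 ± 0.66 on the log2 scale, limma adjusted p = 0.991).

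The array held 3 Gas5 probe sets, and all 3 are given because they differ greatly in brightness. The second, 98530_at, read 10.8, 22.5, 30.5 and 50.3 in wild type, and in knockout 17.1 on array 4 and below the floor of 10.11 on the other 3. Its log2 difference of -1.10 ± 0.45 is therefore set in part by the floor. It did not pass the threshold (limma adjusted p = 0.798). In adults it read 74.3, 41.6 and 59.8 in wild type and 11.5, 9.89 and 5.81 in knockout, 2 of these below the floor, and the log2 difference of -2.43 ± 0.52 was not called either (limma adjusted p = 0.799). The last, 101885_at, was too dim to be tested, with a mean of 6.33 in wild type and 7.99 in knockout. The direction was thus shared by both probe sets that were tested, and the last held no usable signal.

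Gas5 lies on chromosome 1 at chr1:161034601-161038539 (GRCm38.p6), on the same chromosome as Tnr at chr1:159523729-159931729, and at position 11 after it when protein-coding genes are counted by their starts. It belongs to the transcripts with a terminal oligopyrimidine tract, a run of C and T at the very start of the RNA that ties its translation and turnover to growth conditions. The start windows of Gas5 are shown because the single call rests on this transcript, and that of Snhg1, another small nucleolar RNA host, for comparison. Each line has 30 bases before and 50 bases from an annotated start (RefSeq, GRCm38.p6, plus strand), and capitals mark the unbroken run of C and T that opens at that start.
Gas5, first annotated start, chr1:161034571-161034650: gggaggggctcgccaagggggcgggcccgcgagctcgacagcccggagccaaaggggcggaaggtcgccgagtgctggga
Gas5, second annotated start, chr1:161035136-161035215: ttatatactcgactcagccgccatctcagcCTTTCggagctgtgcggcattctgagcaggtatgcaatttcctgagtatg
Snhg1, chr19:8723457-8723536: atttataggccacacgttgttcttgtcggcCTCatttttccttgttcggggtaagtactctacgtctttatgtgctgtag

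The second start of Gas5 opened a run of 5 pyrimidines and its first start opened none, while that of Snhg1 opened 3. A start at C with a run of at least 5 occurred in 823 of 32851 annotated start windows of mouse genes (2.51%), read on the strand of the gene. Which of the starts gives the transcript that the probe set reads was not tested. The differences of 2 other hosts of small nucleolar RNAs were within 1 SE of 0. Snhg1 read 96.0, 93.4, 120 and 183 in wild type and 94.8, 131, 89.4 and 135 in knockout, a log2 difference of -0.10 ± 0.23 that changed sign without wild type array 4 or without knockout array 3. Snhg6 read 1327 ± 147 (SD, n = 4) and 1218 ± 201 (n = 4), a difference of -0.13 ± 0.14, with overlapping groups. Over the 16 tested genes of small nucleolar RNA hosts and growth arrest, 5 were higher and 11 lower, with a median of -0.08. Cdkn1c, a cell cycle inhibitor, had the smallest p of the list after Gas5, at 222 ± 27.9 in wild type and 332 ± 75.1 in knockout (0.56 ± 0.19). The 15 ribosomal protein genes tested had a median of 0.04, and 9 were higher and 6 lower.

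**Figure D2:**
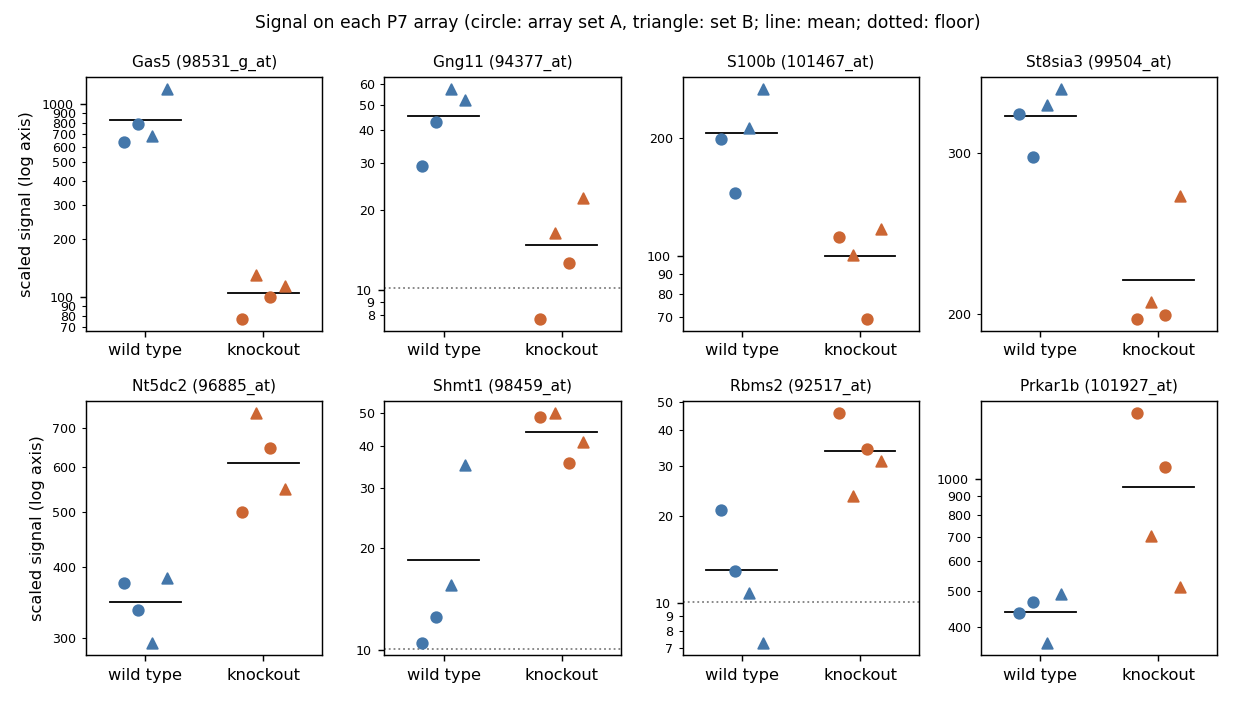
Scaled signal on each P7 array (log axis) for 8 genes, with wild type in blue and knockout in orange, the line at the group mean, the shapes marking the array sets A and B and the dotted line the floor of 10.11. Within each panel the groups do not overlap, and Gas5 has the widest gap.

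Apart from Gas5, 23 further genes were named because their groups did not overlap and their p was smallest, 11 lower and 12 higher in knockout. None passed the threshold, with limma adjusted p between 0.363 and 0.712. The lack of overlap chose these genes and is no evidence for them, and 2.88% of all probe sets met it. Including Gas5, 12 of the 24 had a mean signal under 100 in both groups, and 4 had at least 1 P7 array at the floor.

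Among the lower genes, Gng11, a gamma subunit of heterotrimeric G proteins, read 29.2, 42.9, 57.5 and 52.1 in wild type and 7.75, 16.3, 12.6 and 22.3 in knockout. Every knockout array was below every wild-type array, with knockout array 1 under the floor, and the log2 difference was -1.58 ± 0.30 (limma adjusted p = 0.363). The other 9 tested G protein beta and gamma genes lay between -0.41 (Gng2) and 0.62 (Gng4), and the median of all 10 was -0.07. P2rx4, an ATP-gated cation channel, read 40.6 ± 8.49 (SD, n = 4) and 13.1 ± 5.71 (n = 4), a difference of -1.54 ± 0.37. Pde6g, an inhibitory subunit of the photoreceptor phosphodiesterase, was dim in both groups at 41.6 ± 9.48 and 13.1 ± 1.74 (-1.64 ± 0.39). Wild type array 3, at 27.4, was apart from the other wild-type arrays of Pde6g, at 45.4 to 47.9.

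S100b, a calcium-binding protein that is abundant in astrocytes and maturing oligodendrocytes, read 199, 145, 212 and 268 in wild type and 112, 101, 69.2 and 118 in knockout. The groups were separated by the step from 118 to 145, and the log2 difference was -1.04 ± 0.21 (limma adjusted p = 0.363). It ranged from -1.26 to -0.87 over all alternatives that were run. In adults the difference was 0.05. Of the 9 S100 family genes tested, 3 were higher and 6 lower, with a median of -0.14. S100a1, a calcium sensor related to S100b, read 91.8 ± 29.0 (SD, n = 4) and 53.0 ± 24.1 (n = 4), a difference of -0.85 ± 0.29, and knockout array 2 at 83.3 lay within the wild-type range. S100a13 read 540 ± 65.9 and 413 ± 109 (-0.42 ± 0.17) and overlapped too.

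The sialyltransferase St8sia3, which adds sialic acid to the sialic acid of glycolipids and glycoproteins, read 331, 297, 339 and 353 in wild type and 198, 206, 200 and 270 in knockout. It differed by -0.61 ± 0.14 on the log2 scale, and knockout array 4 stood apart from the other knockout arrays while still below the wild-type arrays. Gpcpd1, a phosphodiesterase of glycerophosphocholine, read 81.3 ± 19.8 (SD, n = 4) and 35.2 ± 3.26 (n = 4), a difference of -1.18 ± 0.24. Not all of the lower genes were dim. The RNA helicase gene Ddx5 read 1031, 964, 903 and 1014 in wild type and 726, 668, 642 and 822 in knockout (-0.46 ± 0.12). The groups were tight, and the highest knockout array was below the lowest wild-type array.

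Pdia3, a disulfide isomerase of the endoplasmic reticulum, read 605 ± 176 (SD, n = 4) and 309 ± 75.4 (n = 4), with a difference of -0.95 ± 0.25. Its wild-type arrays formed 2 levels, 763 and 745 on arrays 1 and 2 and 413 and 497 on arrays 3 and 4. Smpdl3a, a phosphodiesterase related to acid sphingomyelinase, differed by -0.47 ± 0.13 and Specc1, a cytoskeletal protein, by -0.58 ± 0.16. Slc25a45, of the mitochondrial carrier family, was dim and differed by -1.16 ± 0.32.

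Among the higher genes, Nt5dc2, a member of the nucleotidase domain family, had the smallest p. It read 374, 336, 293 and 382 in wild type and 498, 745, 647 and 547 in knockout. The difference was 0.81 ± 0.17 (limma adjusted p = 0.501), and all knockout arrays were above the highest wild-type array. It lay between 0.70 and 0.90 over all alternatives. Prkar1b, a regulatory subunit of protein kinase A in neurons, read 437, 467, 361 and 491 in wild type and 1504, 702, 1080 and 512 in knockout. The knockout arrays spanned a wide range here, with array 4 close to the wild-type level, and the difference was 1.00 ± 0.26. Its other tested probe set read 1289 and 1592 with overlapping groups, a difference of 0.24 ± 0.20.

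Shmt1, the cytosolic serine hydroxymethyltransferase that feeds one-carbon units into folate metabolism, read 10.5, 12.5, 15.6 and 35.02 in wild type and 48.7, 49.9, 35.5 and 41.0 in knockout. Wild type array 4 almost reached the lowest knockout array, and the difference was 1.41 ± 0.34 (limma adjusted p = 0.657). All 8 tested genes of the folate and one-carbon list were higher in knockout, with a median of 0.22 against -0.00 over all 6257 genes. Most of these differences were small beside their errors. The glycine cleavage gene Gldc read 88.9, 75.1, 77.7 and 74.2 in wild type and 81.8, 141, 107 and 135 in knockout (0.53 ± 0.18), with knockout array 1 inside the wild-type range.

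The next of the higher genes, Rbms2, a single-stranded nucleic acid binding protein, read 13.03 ± 5.86 (SD, n = 4) and 33.7 ± 9.22 (n = 4), a difference of 1.32 ± 0.30 with 1 wild-type array at the floor. Hltf, a helicase of DNA damage tolerance, differed by 1.08 ± 0.27 and Abt1, an activator of basal transcription, by 0.84 ± 0.22. Tfdp1, the dimer partner of E2F factors, was split between its probe sets. The dim one, 97565_r_at, read 18.4 ± 3.27 and 40.4 ± 4.78 (1.14 ± 0.28), while the brighter ones, 101958_f_at and 101959_r_at, gave -0.19 ± 0.23 and -0.25 ± 0.26. At P7 the wild-type arrays of the dim one read at most 22.4 and the knockout arrays at least 35.8. It may thus have passed the brightness filter through its knockout arrays.

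Dtx1, a ubiquitin ligase of the Notch pathway, read 704, 770, 565 and 573 in wild type and 887, 994, 987 and 849 in knockout (0.52 ± 0.14). The step between the groups was from 770 to 849. Maged1, an adaptor of the p75 neurotrophin receptor, was the brightest of the higher genes at 1510 ± 123 (SD, n = 4) and 2096 ± 322 (n = 4), a difference of 0.46 ± 0.13. Sdc1, a heparan sulphate proteoglycan of the cell surface, was dim, with 2 of 4 wild-type arrays at the floor and a difference of 1.32 ± 0.35. No wild-type array of Sdc1 read above 19.6 at P7 or 26.6 in adults, while knockout arrays reached 38.8 and 56.8. Sdc1 may thus have passed the brightness filter through knockout arrays alone, and its difference is no evidence of an effect. Dhrs3, which reduces retinaldehyde, differed by 1.09 ± 0.28. Cyb5r1, a cytochrome b5 reductase, differed by 0.55 ± 0.14 on one probe set and by -0.05 ± 0.24 on its other tested one.

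A gene with several probe sets allows a comparison within the same RNA. Whether its probe sets read separate stretches of sequence or share probes was not tested. Of the 24 genes above, 15 had 1 probe set on the array. For 5 of the other 9, all further probe sets were too dim to be tested. Over the whole table, 1088 genes had 2 or more tested probe sets, and in 628 of them (57.7%) all probe sets had the same sign. Among the 1477 pairs of probe sets of a gene, 60.9% shared a sign, with Pearson's r at 0.25 and Spearman's rho at 0.28 across pairs. Pairs share arrays and are not independent replicates. Where both probe sets were among the 2785 brightest of the table, 72.6% of 215 pairs shared a sign and r was 0.48. Gas5 was the 1 gene with a pair of probe sets that both differed by more than 1 in the same direction, and 0 pairs did so in opposite directions.

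**Figure D3:**
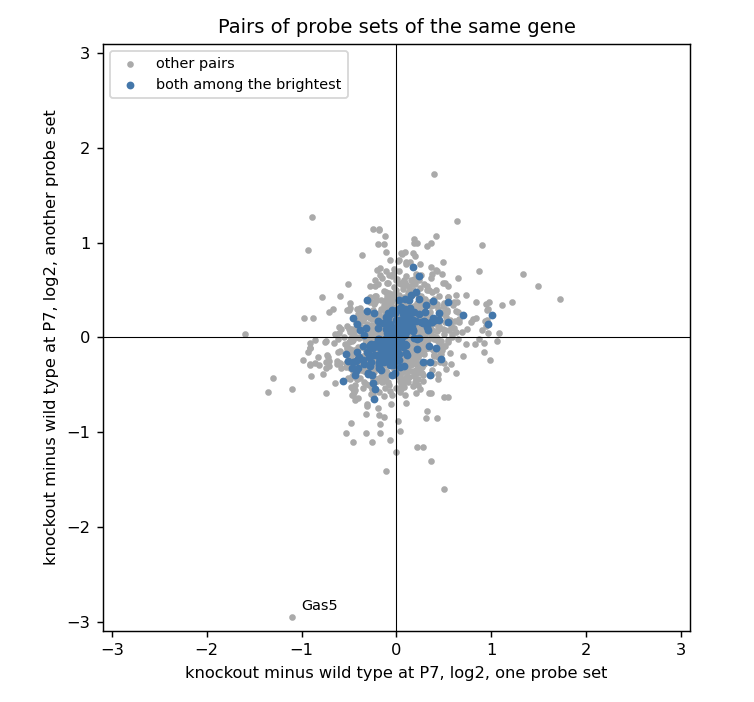
Each point is 1 of 1477 pairs of tested probe sets of the same gene, with the log2 difference of one on the x axis and of the other on the y axis. Blue points, the 215 pairs with both among the brightest 2785 probe sets, follow the diagonal more closely than the grey points do, and Gas5 is the pair far below.

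At least 1 probe set without overlap between the groups occurred in 67 of the 1088 genes, and 2 such probe sets in only 2 of them. The 1088 genes held 2356 tested probe sets, and 2.88% of all probe sets were without overlap. The count was not tested against that share. The lack of overlap chose the 2 genes and is no evidence for them. Asnsd1, an asparagine synthetase domain protein, was lower on both of its tested probe sets. On 97797_at it read 412, 384, 366 and 367 in wild type and 309, 315, 343 and 309 in knockout (-0.26 ± 0.12). On 161389_f_at, which is dimmer, the difference was -0.74 ± 0.32. Otud5, a deubiquitinase, was higher on 96814_r_at at 45.4 ± 8.53 (SD, n = 4) and 69.0 ± 8.15 (n = 4), and by a smaller margin on 96813_f_at (0.62 ± 0.22 and 0.18 ± 0.12). On the remaining one it read 192 ± 12.1 and 193 ± 19.5, a difference of 0.01 ± 0.14. No gene had probe sets without overlap in opposite directions. None of these differences passed the threshold. Of 53 other genes given here, mostly from the gene lists and the neighbours of Tnr, 15 had more than 1 tested probe set, and all probe sets had the same sign in 8 of them.

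Size and error of the differences depended on brightness. Among the 2785 dimmest probe sets, with mean signal up to 83.1, the median size of the log2 difference was 0.25 and the median SE 0.35. Among the 2785 brightest, from 255 upward, they were 0.16 and 0.19. Of the 107 probe sets beyond 1, 94 were among the dimmest and 3 among the brightest. The share without overlap varied little with brightness, at 2.48% of the dimmest, 3.12% of the middle and 3.05% of the brightest. Probe sets whose suffix marks probes shared within a gene family, _f_at, had 4.39% without overlap among 660, and those with the plain suffix _at 2.83% among 6748.

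The consistency over arrays was limited by a division of the P7 arrays that crossed genotype. The leading principal component of the 8 arrays held 39.1% of their variance and parted wild type 1 and 2 with knockout 1 and 3 (set A) from wild type 3 and 4 with knockout 2 and 4 (set B). The labels name no batch that matches these sets, and they were read from the same values that are compared. Within a set the knockout effect is a difference of 2 arrays against 2. The effects in set A and set B had the same sign for 49.1% of probe sets, with a Pearson r of -0.11 across probe sets. Of 474 probe sets beyond 1 in set A, 167 had the same sign in set B and 26 were beyond 1 in that direction there too. In 46 probe sets the effect was beyond 1 in both sets and opposite.

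**Figure D4:**
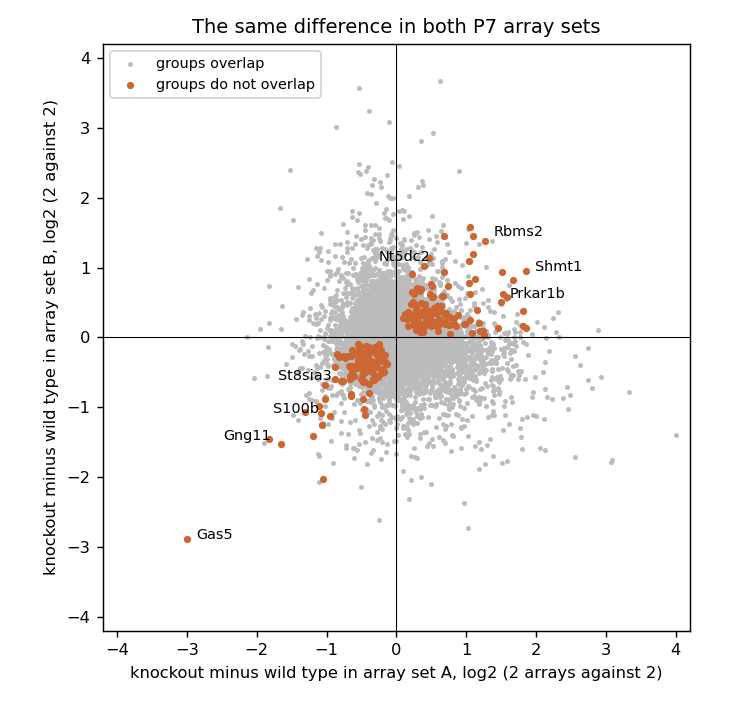
Each point is 1 of 8355 probe sets, with the log2 difference, knockout minus wild type, within array set A on the x axis and within array set B on the y axis. The grey cloud shows no common direction (r = -0.11), and Gas5 lies near -3 in both sets.

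A lack of overlap between the groups fixes the same sign in both sets, as in all 241 such probe sets. The genes above, chosen by that rule, differed in how evenly the sets carried them. The difference of Gas5 was -3.00 in set A and -2.89 in set B. That of Gng11 was -1.65 and -1.52, that of S100b -0.94 and -1.13, and that of Rbms2 1.26 and 1.37. Dhrs3 in contrast differed by 1.81 in set A and 0.37 in set B, and Maged1 by 0.75 and 0.18. With the array set as a block the median SE fell from 0.23 to 0.20, and limma called 4 probe sets. The sets were read from the leading component of these same values, so a smaller SE follows from how they were made. The adjusted p values of this fit are therefore no independent support. They were Gas5 and Gng11 (both limma adjusted p = 0.0266), Lin7b (0.0266) and Ube2h (0.0350). With the same block on the P7 arrays alone, a fit chosen after seeing the data, Gas5 was the 1 probe set called (limma adjusted p = 0.000306), and the calls of Gng11 (0.442), Lin7b (0.283) and Ube2h (0.283) were lost. In the block fit that called 4 probe sets, S100b had a limma adjusted p of 0.0576 and S100a1 of 0.0909.

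Lin7b, a scaffold protein of synapses and cell junctions, shows what the block does. It read 926, 742, 124 and 136 in wild type and 498, 53.8, 544 and 58.8 in knockout, so that the groups overlapped fully while each set had its wild-type arrays on top. Its log2 difference of -0.94 had an SE of 0.78 without the block and 0.14 with it. Ube2h, a ubiquitin-conjugating enzyme, read 243, 262, 119 and 84.6 in wild type and 499, 196, 410 and 231 in knockout. The wild-type arrays were the lower ones within each set, by 0.84 in set A and 1.09 in set B. The brighter probe set of Ube2h read 354 and 442 with overlapping groups, a difference of 0.32 ± 0.18.

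The matrix partners and relatives of tenascin-R made up a list of 16 tested genes of the 26 on it. Of these 9 were higher and 7 lower, with a median of 0.14, and none was called. An unadjusted p under 0.05 was met by 2 higher and 1 lower gene, against 3.37% and 2.83% of all genes. No overlap between the groups was seen in 2, both higher, against 3.07% of all genes (1.65% higher and 1.42% lower). Fn1, the fibronectin gene, read 310, 292, 300 and 282 in wild type and 336, 389, 395 and 368 in knockout (0.33 ± 0.12), so that every knockout array was above the wild-type range. Fbln2, a fibulin that binds lecticans, read 32.9, 63.9, 66.0 and 59.3 in wild type and 118, 66.7, 77.0 and 83.3 in knockout (0.65 ± 0.27), with a step of less than 1 unit between the groups. Sparc, a matricellular glycoprotein, was on the other side at 638 ± 148 (SD, n = 4) and 458 ± 92.7 (n = 4) (-0.48 ± 0.22), and Fbln1 read 333 ± 50.1 and 433 ± 133 (0.34 ± 0.19); both overlapped.

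Receptors and partners of tenascin-R at the cell surface were evenly divided, with 5 of 10 tested genes higher, 5 lower and a median of -0.12 that reached 0.00 in 1 alternative. Mag, the myelin-associated glycoprotein, read 585, 282, 135 and 181 in wild type and 361, 91.2, 201 and 52.4 in knockout (-0.89 ± 0.50), and its dimmer probe set differed by 0.20 ± 0.21. The integrin subunit genes Itgb1 and Itgav differed by -0.26 ± 0.14 and -0.42 ± 0.28, and the sodium channel gene Scn8a by -0.39 ± 0.28. The groups overlapped in all 4. Among the 12 tested voltage-gated sodium and potassium channel genes 5 were higher and 7 lower, with a median of -0.19, and Scn1a had the smallest p at 224 ± 61.8 and 153 ± 70.5 (-0.63 ± 0.29).

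Enzymes that remodel the matrix had a median of 0.15 over 11 tested genes, 7 higher and 4 lower, and the median was -0.13 within set A and 0.21 within set B. Mmp14, a membrane-bound metalloproteinase, read 396, 399, 305 and 357 in wild type and 418, 481, 516 and 557 in knockout (0.44 ± 0.16), without overlap. Hyal2, a hyaluronidase, read 48.6, 105, 139 and 139 in wild type and 155, 144, 187 and 142 in knockout (0.65 ± 0.28). Its lowest knockout array was barely above the highest wild-type array. The inhibitors of metalloproteinases went apart, with Timp3 at -0.48 ± 0.21 and Timp2 at 1.10 ± 0.47. Timp2 read 531 and 548 on wild type arrays 1 and 2 but 120 and 117 on arrays 3 and 4, so that its difference was -0.13 in set A and 2.33 in set B.

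Genes of chondroitin and heparan sulphate synthesis had a median of 0.10 over 9 tested genes, with 6 higher and 3 lower. The median was -0.13 within set A and 0.32 within set B. Hs3st1, a heparan sulphate sulphotransferase, read 133 ± 18.0 (SD, n = 4) and 104 ± 8.10 (n = 4) without overlap (-0.35 ± 0.17). The step between its groups was only from 112.1 to 112.2. B3gat3, which builds the linker of these chains, read 197 ± 33.3 and 270 ± 54.1 (0.45 ± 0.17). The sialyltransferase list had a median of 0.01 over 17 genes. Beside St8sia3, St6galnac4 was lower without overlap, at 189, 148, 132 and 150 in wild type and 95.5, 101, 102 and 82.7 in knockout (-0.69 ± 0.28), while its dimmer probe set gave 0.10 ± 0.29. St3gal2 differed by 1.28 ± 0.65 with 2 wild-type arrays at the floor, and Cmas, which activates sialic acid, by 0.36 ± 0.17. Neither direction prevailed in this family, with 9 genes higher and 8 lower.

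**Figure D5:**
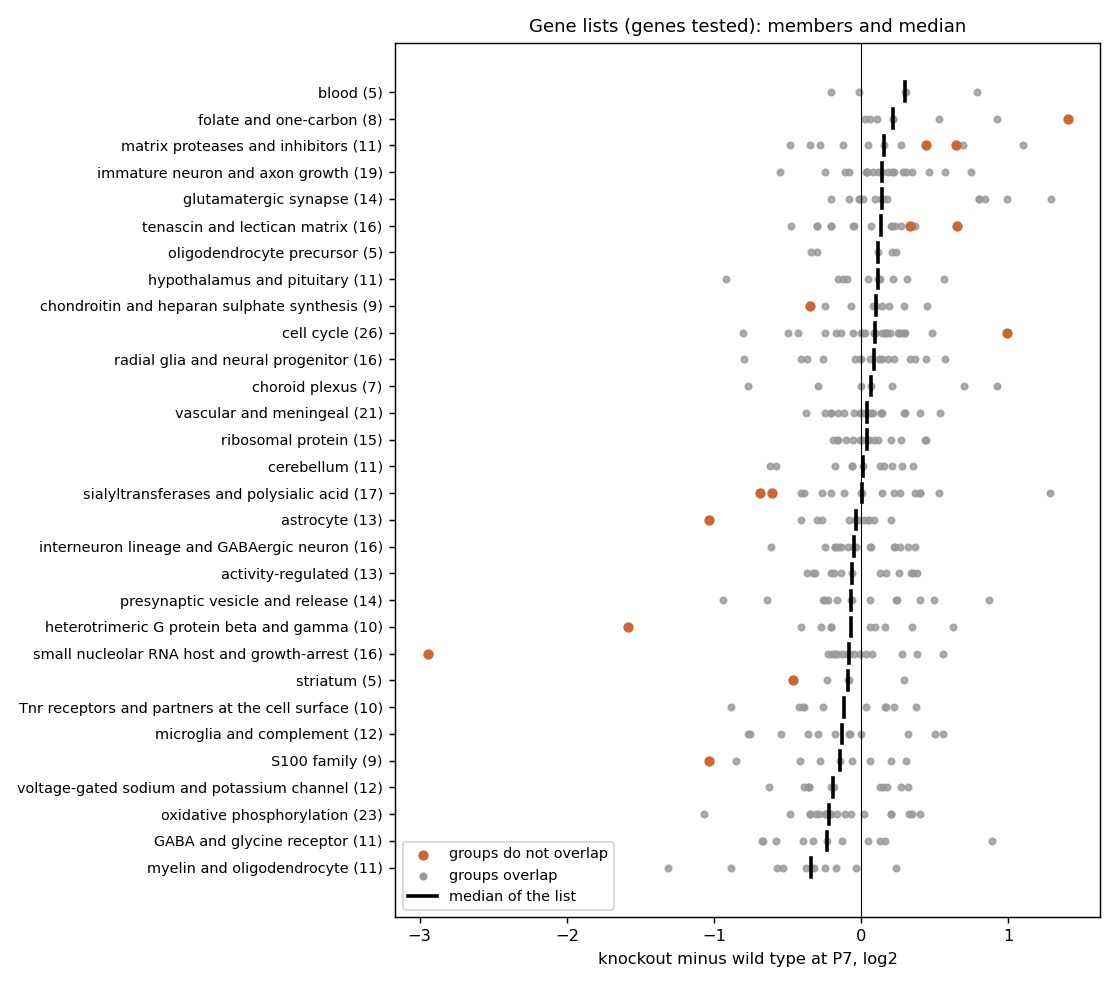
Grey and orange points are the log2 differences, knockout minus wild type at P7, of the tested genes of 30 lists, with the number tested in brackets and the black bar at each list's median. The myelin list has the lowest median (-0.34), and Gas5, Gng11, S100b and Shmt1 lie far from the medians of their lists.

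Myelin and oligodendrocyte genes had the lowest median of the lists described, -0.34 over 11 tested genes of 20, against -0.00 over all genes. Of them 10 were lower and 1 higher in knockout, 0 were called and the groups of each gene overlapped. Mog, a surface protein of myelin, read 132, 38.4, 66.5 and 71.7 in wild type and 29.7, 63.4, 4.28 and 33.5 in knockout (-1.31 ± 0.45), with knockout array 3 under the floor. Ugt8a, which makes galactocerebroside, read 187, 85.1, 71.9 and 48.6 in wild type and 94.0, 49.8, 48.5 and 50.2 in knockout (-0.57 ± 0.38). Cldn11, a claudin of the myelin sheath, differed by -0.38 ± 0.27, at 0.11 in set A and -0.86 in set B. Wild type array 1 was the highest of all 8 arrays for Mog, Mag and Ugt8a.

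The mean log2 signal of the myelin list was 8.37 on wild type array 1 and 7.41 to 7.50 on the other wild-type arrays. It was 7.82 on knockout array 1 and 6.95 to 7.19 on the other knockout arrays. The groups overlapped through knockout array 1. The list's median ran from -0.71 to -0.15 over all alternatives and was -0.71 without knockout array 1 and wild type array 2. The summed signal of the 4 oligodendrocyte markers measured was 1483 to 3348 in wild type and 1127 to 3296 in knockout, and its part in the result was not tested. Genes of oligodendrocyte precursors had a median of 0.12 over 5 genes, and that median changed sign in 4 alternatives.

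The 13 astrocyte genes, S100b among them, had a median of -0.03, with 5 higher and 8 lower, and that median ran from -0.29 to 0.08 over all alternatives. Aqp4, the water channel of astrocyte endfeet, read 650 ± 179 (SD, n = 4) and 478 ± 60.5 (n = 4) (-0.41 ± 0.20), and Sparcl1 differed by -0.30 ± 0.21. Both overlapped, and the dimmer probe set of Aqp4 gave 0.001 ± 0.299. The summed signal of the 4 astrocyte markers measured was 2188 to 3438 in wild type and 1544 to 2658 in knockout.

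Microglia and complement genes had a median of -0.13 over 12 genes, with 3 higher and 9 lower, but 0.10 within set A and -0.44 within set B. B2m, which carries class I histocompatibility molecules to the cell surface, read 314, 156, 262 and 426 in wild type and 116, 154, 211 and 173 in knockout (-0.77 ± 0.29). Wild type array 2 lay within the knockout range. Tyrobp, a signalling adaptor of microglia, differed by -0.54 ± 0.25. On the higher side were C1qa, a chain of the complement protein C1q, at 0.55 ± 0.30 and the fractalkine receptor gene Cx3cr1 at 0.50 ± 0.26. C1qa differed by 1.42 in set A and -0.31 in set B. The groups overlapped in all 4 genes. The summed signal of the 5 microglial markers was 596 to 768 in wild type and 594 to 1111 in knockout, with Aif1 at the floor on all P7 arrays.

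Genes of immature neurons and axon growth were mostly higher, 15 of 19, with a median of 0.14 that ran from 0.03 to 0.25 over all alternatives. None was called and the groups overlapped in each. Cd24a, a surface antigen of young neurons, read 1050, 1769, 1640 and 1692 in wild type and 2550, 1676, 2857 and 2059 in knockout (0.57 ± 0.20). Wild type array 1 was low and knockout array 2 was within the wild-type range. Sox4, a transcription factor of neuronal differentiation, read 928, 1156, 567 and 568 in wild type and 994, 1776, 1247 and 1242 in knockout (0.75 ± 0.23), a difference of 0.10 in set A and 1.39 in set B. Its dimmer probe set gave 0.18 ± 0.32. The cytoskeletal regulators Crmp1 and Marcksl1, both bright in either group, differed by 0.28 ± 0.14 and 0.30 ± 0.15. The mean log2 signal of the list was 10.36 to 10.54 on wild-type arrays and 10.60 to 10.70 on knockout arrays. Of the 31 lists, this was the 1 whose mean level was higher in knockout without overlap, and the list that holds Gas5 was the 1 lower without overlap. Gas5 alone set the latter, since the mean of the other 15 genes was 8.17 to 8.29 in wild type and 8.11 to 8.32 in knockout. Among all 6257 genes 1.65% were higher and 1.42% lower without overlap, and the count of lists was not tested against these shares. The difference of the immature neuron list is small, and no p is given because the list was chosen with earlier results known.

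Synaptic lists were described by 4 groups of genes. Glutamatergic synapse genes had a median of 0.14, with 10 of 14 higher, and GABA and glycine receptor genes a median of -0.23, with 7 of 11 lower. Neither median changed sign in any alternative, and no gene of either list was called or free of overlap. Within set A and within set B the glutamatergic median was 0.03. The receptor median was -0.50 in set A and -0.15 in set B. Grin2b, an NMDA receptor subunit, read 10.01, 9.34, 26.2 and 13.4 in wild type and 115, 16.5, 39.4 and 17.1 in knockout (1.29 ± 0.53), which rested on knockout array 1 and was 2.74 in set A and -0.15 in set B. Grik5, a kainate receptor subunit, went the other way between the sets, at -0.24 in set A and 2.22 in set B (0.99 ± 0.42), and its dimmer probe set gave -0.23 ± 0.36. Presynaptic genes had a median of -0.07 and genes of the interneuron lineage one of -0.05.

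Cell cycle genes had a median of 0.09, with 18 of 26 higher, but 0.30 within set A and -0.19 within set B. Mcm7, a subunit of the replicative helicase, read 68.2, 46.2, 79.2 and 77.8 in wild type and 202, 80.2, 203 and 92.0 in knockout (0.99 ± 0.34). The groups did not overlap, by a step of 79.2 to 80.2, and the difference was 1.85 in set A and 0.13 in set B. Radial glia and progenitor genes had a median of 0.09, with 10 of 16 higher.

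Oxidative phosphorylation genes were lower in 17 of 23, with a median of -0.22 that ran from -0.22 to -0.15 over all alternatives, while none was called and each gene's groups overlapped. Their differences were small. Cox6a1, a subunit of cytochrome oxidase, read 6414, 5648, 5231 and 5756 in wild type and 4717, 4768, 5524 and 4812 in knockout (-0.22 ± 0.12), with knockout array 3 inside the wild-type range. Ndufb9, of complex I, read 1101 ± 132 (SD, n = 4) and 936 ± 93.0 (n = 4) (-0.23 ± 0.13). Atp5k, of the ATP synthase, was dim and differed by -1.07 ± 0.51, with knockout array 4 above all others at 87.5. The mean log2 signal of the list was 9.11 to 9.28 on wild-type arrays and 8.95 to 9.12 on knockout arrays.

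Regional and non-neural lists had medians between -0.09 and 0.30. Penk, the enkephalin precursor of striatal neurons, read 2090, 2069, 2010 and 2252 in wild type and 1536, 1280, 1799 and 1523 in knockout (-0.47 ± 0.13, limma adjusted p = 0.748), without overlap, and its dimmer probe set gave -0.61 ± 0.34. The other 4 striatal genes lay between -0.23 and 0.29. Igfbp2, a growth factor binding protein of choroid plexus and meninges, read 1344, 2113, 599 and 700 in wild type and 1471, 1724, 1715 and 1885 in knockout (0.70 ± 0.30), at -0.09 in set A and 1.48 in set B. Blood genes had a median of 0.30 over 5 genes, which ran from -0.01 to 0.45 over alternatives, and the summed signal of 3 blood markers was 2380 to 8194 in wild type and 4020 to 6775 in knockout. Markers of vessels and meninges (1592 to 2202 and 1844 to 2014), choroid plexus (384 to 578 and 341 to 643, with Kl at the floor) and skeletal muscle (166 to 210 and 106 to 207) overlapped between the groups as well.

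Neighbours of Tnr on chromosome 1 were described because genes close to a targeted allele are inherited together with it. Of the 60 protein-coding genes within 30 on either side, 16 were tested, of which 4 were higher and 12 lower, with a median of -0.16. An unadjusted p under 0.05 was met by 3, against 6.20% of all genes, and none was called. Qsox1, a sulfhydryl oxidase 22 genes before Tnr, read 77.9, 57.9, 65.0 and 63.0 in wild type and 22.9, 15.6, 71.8 and 29.1 in knockout (-1.16 ± 0.37). Knockout array 3 was at the wild-type level, and the difference was -1.58 without it. Its other tested probe set, which was dimmer, gave 0.21 ± 0.49. Cop1, a ubiquitin ligase next to Tnr, read 412, 188, 219 and 91.6 in wild type and 318, 462, 343 and 346 in knockout (0.87 ± 0.34), with wild type array 1 inside the knockout range, and its other probe set gave -0.36 ± 0.30.

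Mrps14, a mitochondrial ribosomal protein 4 genes after Tnr, read 376 ± 34.1 (SD, n = 4) and 300.3 ± 49.2 (n = 4) (-0.33 ± 0.14), with overlap. Cacybp, a calcyclin-binding protein 5 genes after Tnr, was the 1 of these 16 whose groups did not overlap, against 3.07% of all genes. Gas5, which also lies in this range, is non-coding and not among the 16. Cacybp read 214, 233, 256 and 234 in wild type and 194, 178, 205 and 207 in knockout, a difference of -0.26 ± 0.14. The step between the groups was from 207 to 214.

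The adult arrays, which share no sample with the P7 arrays, gave a separate look at the same genes. Of the 12 lower genes named above 6 were also lower in adult knockout, and of the 12 higher genes 11 were also higher, but the adult differences were small, with medians of -0.03 and 0.06. Without overlap in adults and in the same direction were 4 of the 24, 1 lower and 3 higher, and 1 more was without overlap in the opposite direction. Of all probe sets 8.90% were without overlap in adults, 5.17% lower and 3.73% higher. Groups of 3 arrays meet that rule more easily than the groups of 4 at P7, so the shares of the ages cannot be compared. Of the 112 probe sets lower without overlap at P7, 40 (35.7%) were lower in adults, against 50.8% of all probe sets. Of the 129 higher without overlap, 57 (44.2%) were higher in adults, against 49.2% of all. Tested for a knockout effect that differs between the ages, limma called 0 of 8355 probe sets (0%), and 324 (3.88%) had an unadjusted p under 0.05.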

How the data were processed

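Whole-brain RNA was measured on 1-colour oligonucleotide arrays. The deposited values were linear intensity, 1 value for each probe set, and the submitters' processing notes name MAS5. The sources used here give neither its version nor its scaling target. Probe sets were named through the platform annotation: of 12488, 10855 had 1 gene symbol, 396 several and 1237 none, and 10817 of 10833 single-gene probe sets other than controls matched RefSeq (GRCm38.p6) by gene number. The 66 control probe sets were left out.

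Each array was scaled to a common 2% trimmed mean, values below the 20th percentile (10.11) were raised to it, and values were turned to log2. Tested were the 8355 probe sets that reached the 40th percentile of the array on 3 or more arrays. The 4 group means over all 14 arrays were fitted in limma 3.58.1 (R 4.3.3; lmFit, eBayes with a mean-variance trend; degrees of freedom 10 residual and 4.97 prior). P-values are two-sided, with Benjamini-Hochberg adjustment over all 8355, and called means an adjusted p under 0.05. The number of arrays limits the precision, with a median SE of 0.23 at P7. For gene lists, a gene was read on its probe set of highest mean.

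Named were called genes, the 12 lower and 12 higher genes of smallest p without overlap between the groups, genes with at least 2 such probe sets of 1 sign, up to 4 genes of smallest p per list and neighbours of Tnr. Snhg1, Snhg6, Ube2h, Gng2 and Gng4 were named after their values were seen. Comparisons, members and lists were chosen with earlier results of these data known. Alternatives changed the scaling, floor, filter, variance model, choice of probe set, block and arrays.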

Additional observations from a re-analysis of the deposited data

Results flagged for a closer look

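In 8 of 68 groups of 4 P7 arrays that were checked, 1 array stood apart by Dixon's ratio, the gap to its nearest neighbour divided by the range of the group. Chance gives about 1 such group in 20. Among the named genes, knockout array 4 stood apart for St8sia3 at a signal of 270 (ratio 0.861) and for Otud5 on 96813_f_at at 368 (0.926), and knockout array 3 for Specc1 at 91.7 (0.846). In wild type, array 3 stood apart for Pde6g at 27.4 (0.906) and array 2 for Smpdl3a at 294 (0.959). None of these arrays crossed into the range of the other genotype, which the choice of the genes requires.

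Of the measures of the arrays themselves, the Gapdh ratio of 3′ to 5′ signal was 0.789 on knockout array 1 (ratio 0.842). Xist was at 213 on wild type array 2 (0.863), and Eif2s3y at 1.25 on the same array (0.962). Wild type adult array 1, which adds to the shared spread, had the same pattern, with Xist at 416 and Eif2s3y at 1.21.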

How the results depend on the processing

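The count of 1 probe set called at P7 (Gas5) became 0 with quantile normalization, no floor, no filter, no mean-variance trend, array weights or the mean of the probe sets of a gene. The Gas5 log2 difference stayed between -2.96 and -2.02 in these, with limma adjusted p of 0.0506 to 0.248. The count was also 0 without wild type array 2 and knockout array 1 (adjusted p = 0.145) and without both arrays with Xist signal (0.211), alternatives chosen after seeing the data. Leaving out each array in turn gave 0 to 1 calls: 0 without any P7 array or any of wild type in adults (Gas5 at adjusted p 0.0963 to 0.229), and 1 without any knockout adult array (1.31e-05 to 0.0433, the lowest without knockout adult array 2). The 8 P7 arrays alone kept the call of Gas5 at adjusted p = 0.00136. The count was 4 with the array set, which was read from the same values, as a block. It was 1 with that block on the P7 arrays alone (Gas5 at 0.000306). Other settings kept 1 call. For the difference between the ages, no filter gave 17 calls in place of 0, and leaving out arrays gave 0 to 1 (Gstm5 without wild type P7 array 1 and an unnamed probe set without wild type adult array 3).

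Replicate numbers are shared between the groups but did not pair the arrays: deviations of same-numbered P7 arrays correlated at 0.09, -0.22, -0.35 and 0.38. With the replicate number as a block 1 probe set was called, Gas5, at adjusted p = 0.0304.

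The difference of the Otud5 probe set nearest to 0 reversed, to -0.005 with quantile normalization, -0.008 without wild type array 2 and knockout array 1 and -0.038 without both arrays with Xist signal. Over single arrays left out it ran from -0.044 to 0.059, and that of Snhg1 from -0.214 to 0.11. The cause was not tested. Probe sets without overlap numbered up to 712 where arrays were left out, since fewer arrays meet that rule more easily. The 8 P7 arrays alone gave 304 probe sets at an unadjusted p under 0.05, and the array set block 993. Signal near the floor limits dim genes: 12 of the 24 named genes were below 100 in both groups.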
